A study of Drosophila melanogaster with 18 samples.

Results

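Glutathione transferases join the tripeptide glutathione to reactive or foreign molecules, and glutamate-cysteine ligase, made of the catalytic subunit Gclc and the modifier subunit Gclm, carries out the first step of glutathione synthesis. Both were examined here in single heads of Drosophila melanogaster after appetitive olfactory training. The members were all genes of the deposited table whose symbol begins with GstD, GstE, GstO, GstS, GstT or GstZ followed by a number, together with Gclm and Gclc, which gave 37 of 17559 genes. They comprise 11 Delta, 14 Epsilon, 3 Omega, 1 Sigma, 4 Theta and 2 Zeta transferases and the 2 ligase subunits.

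The data set held 18 single heads in 3 groups of 6. Flies of the sucrose and sorbose groups were food-deprived and trained with the odor octanol and that sugar, and their heads were collected 4 h later. Sorbose tastes sweet to flies but has no food value for them. The odor group, labelled naive, had the odor but no sugar, and the study states that these flies were starved too. The labels give no collection time for it, nor a strain or an age for any group. The study's methods state that the flies were female. Food, training and the time of collection therefore cannot be told apart in a difference from odor heads. Each head is a separate RNA sample of poly-A transcripts, sequenced with a kit that does not keep strand. A head holds brain, eyes, fat body, muscle and antennae together, so that fewer cells of a type and less RNA per cell cannot be told apart.

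In insects the Delta and Epsilon classes are large, lie in gene clusters and include enzymes of insecticide resistance and detoxification. Omega enzymes carry a cysteine in the active site and act on ascorbate and pteridine substrates. The Zeta class includes maleylacetoacetate isomerase of tyrosine breakdown, and the Sigma enzyme GstS1 handles lipid peroxidation products. The transcription factor cnc, the fly counterpart of Nrf2, together with its partner maf-S and its inhibitor Keap1, controls many of these genes.

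Library size recovered from the values ranged from 45.8 to 60.4 M reads (M, mega) in sucrose heads, from 46.8 to 65.6 M in sorbose heads and from 58.4 to 77.2 M in odor heads. Summed neuronal marker levels overlapped between groups, at 436 to 511 RPKM (reads per kilobase of transcript and M mapped reads) in sucrose, 466 to 551 RPKM in sorbose and 466 to 542 RPKM in odor heads. Summed photoreceptor markers ranged from 9580 to 14188 RPKM over the heads. Odor heads varied most. On the first principal component of all tested genes, sucrose heads lay between -27.4 and -0.45, sorbose heads between -11.0 and -4.81 and odor heads between -5.17 and 54.2. Odor replicates 1 and 6 lay farthest out, at 54.2 and 50.5, whereas odor replicates 4 and 5 lay among or near the trained heads, at -5.17 and 0.034. Results for the members are therefore also given without both of the first pair, and without both of the second pair. Listed pathway genes and cell type markers are given with all 18 heads only.

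Glutathione transferases covered a wide range of levels. GstD1, a Delta transferase that acts on DDT, had the highest mean over the 18 heads, at 314 RPKM. GstE12 followed at 160 RPKM, GstE9 at 90.0 RPKM, GstT4 at 83.4 RPKM and GstE6 at 53.6 RPKM. Gclm averaged 38.2 RPKM and Gclc 20.6 RPKM, ranks 9 and 17 among the 37 genes. Of the 11 Delta genes, 4 (GstD4, GstD5, GstD6 and GstD7) stayed under the minimum mean of 0.5 RPKM and were not tested. GstD4 lay between 0 and 0.400 RPKM, GstD5 between 0.0394 and 0.520 RPKM, GstD6 between 0 and 0.0920 RPKM and GstD7 between 0 and 0.121 RPKM, with at most 20 reads of any of them in a head. All 33 other members were tested.

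Heads of the same group varied in these genes. The coefficient of variation (SD over mean) of a tested member had a median of 15.7% in sucrose, 20.4% in sorbose and 23.9% in odor heads, against 9.12%, 9.55% and 11.6% over all tested genes. In odor heads the median was 32.9% for the Epsilon genes and 24.4% for the Delta genes. Gclm was the steadiest member there, at 3.91%.

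**Figure D1:**
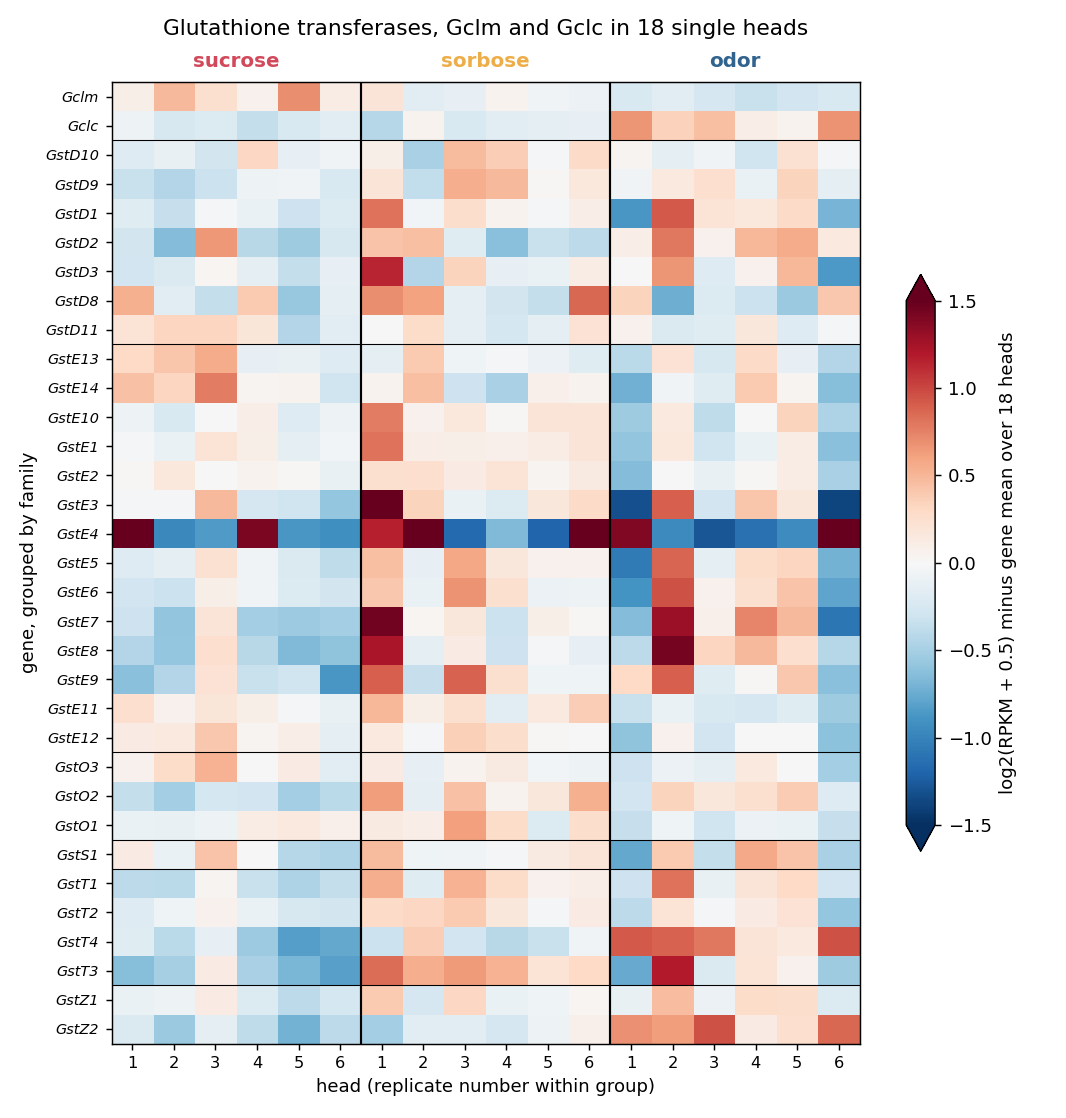
Heat map of the 33 tested genes (rows, by family) in the 18 heads (columns, sucrose, sorbose, odor, numbered by replicate), coloured by log2(RPKM + 0.5) minus the mean of the gene over all heads and capped at 1.5 either way. Gclc, GstT4 and GstZ2 are high across the odor heads, most other rows are low in odor replicates 1 and 6, and GstE4 is high in 7 heads spread over the 3 groups.

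The first question was whether these genes differ between trained heads and heads of flies exposed to odor alone. Differences are given on the scale of log2(RPKM + 0.5), and a gene was called at a limma p under 0.05 after adjustment over all genes tested. In sucrose against odor heads, Gclm, GstE11 and GstE12 were higher and Gclc, GstO2, GstT4 and GstZ2 lower. That is 7 of 33 tested members, or 21.2%, against 27.5% of all 11062 genes tested. The 3 higher and 4 lower members stand beside 13.1% of all genes called higher and 14.4% called lower. The median log2 difference was -0.05 over the members and -0.0012 over all tested genes, with 14 members above 0 and 19 below.

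In sorbose against odor heads, GstE1, GstE2, GstE11, GstE12 and GstO1 were higher and Gclc, GstT4 and GstZ2 lower, 8 of 33 members or 24.2%. Of all genes, 24.4% were called, that is 12.2% higher and 12.2% lower in sorbose heads. The median log2 difference was 0.16 over the members, of which 27 were above 0 and 6 below, and 0.0067 over all tested genes. Without odor replicates 1 and 6 this excess of members above 0 was gone, with 16 members above 0, 17 below and a median of -0.0033. In sucrose against odor heads 12 members were then above 0 and 21 below, with a median of -0.38. Both shares of members called lay near or below those of all genes. The 2 comparisons share the odor heads. In them 5 members were called both times, 2 (Gclm and GstO2) only for sucrose and 3 (GstE1, GstE2 and GstO1) only for sorbose, and 23 tested members were called in neither.

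**Figure D2:**
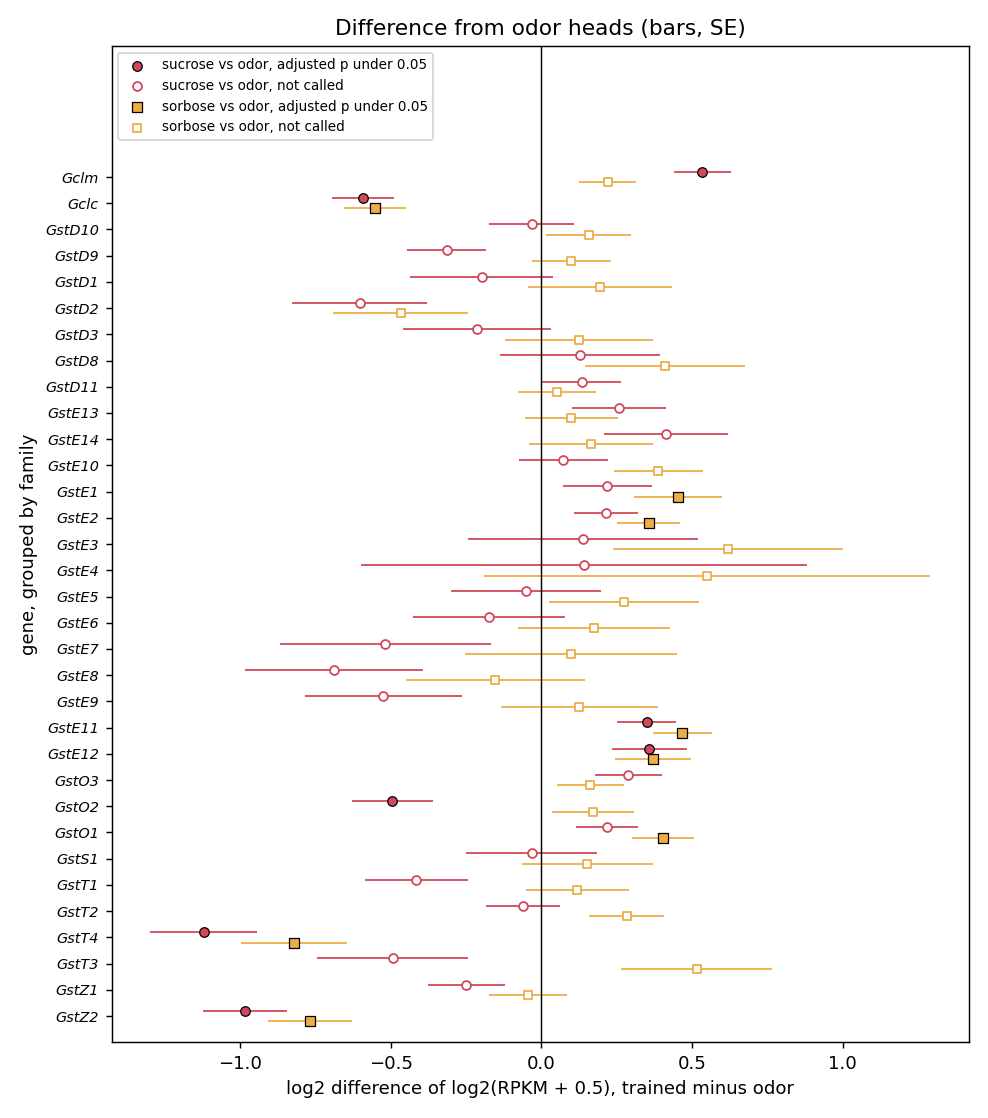
Log2 difference of log2(RPKM + 0.5) from odor heads for the 33 tested genes, sucrose heads as circles and sorbose heads as squares, with the SE as bars and filled symbols for limma adjusted p under 0.05. GstT4 and GstZ2 lie farthest to the left for both sugars, and Gclm and Gclc lie on opposite sides of 0.

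The subunits of glutamate-cysteine ligase moved in opposite directions in sucrose heads. Gclm (FBgn0046114, on the minus strand of dm6 chromosome 3R at 22685006 to 22686510) codes for the subunit that lowers the amount of substrate the enzyme needs. Its lowest, median and highest values were 39.3, 42.4 and 61.2 RPKM in sucrose heads, 33.2, 35.7 and 43.0 RPKM in sorbose heads and 29.6, 31.6 and 33.2 RPKM in odor heads. All sucrose heads lay above all odor heads, and the sorbose heads lay between, overlapping both groups. The log2 difference from odor heads was 0.53 ± 0.10 in sucrose heads, or 1.45-fold (SE, limma adjusted p = 0.00102), and 0.22 ± 0.10 in sorbose heads (limma adjusted p = 0.101). Without sucrose replicate 5, the highest head, the sorbose difference was called (limma adjusted p = 0.0396), and over all alternatives this p ran from 0.0315 to 0.220. The difference between the sugars was 0.31 ± 0.10 (limma adjusted p = 0.211), so that a difference of Gclm between sucrose and sorbose heads was not called.

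Gclc (FBgn0040319; dm6 chromosome X, 8102181 to 8116147, minus strand) codes for the catalytic subunit. It measured 15.6, 17.2 and 19.0 RPKM (lowest, median and highest) in sucrose heads, 14.8, 18.01 and 20.9 RPKM in sorbose heads and 20.8, 26.6 and 32.4 RPKM in odor heads. Sucrose heads did not overlap odor heads, while the highest sorbose head reached just into the odor range. Gclc fell by 0.59 ± 0.10 on the log2 scale in sucrose heads (SE, limma adjusted p = 0.000907) and by 0.55 ± 0.10 in sorbose heads (limma adjusted p = 0.00295). Sucrose and sorbose heads differed by -0.04 ± 0.10. Both calls remained without odor replicates 1 and 6, the heads with the most Gclc, at -0.45 ± 0.09 in sucrose heads (limma adjusted p = 0.00580) and -0.41 ± 0.09 in sorbose heads (limma adjusted p = 0.0187).

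The ratio of Gclm to Gclc RPKM, 2 length-scaled levels, was 2.10, 2.54 and 3.60 (lowest, median and highest) in sucrose heads, 1.59, 2.01 and 2.91 in sorbose heads and 0.985, 1.21 and 1.48 in odor heads. Every trained head had a ratio above every odor head. The ratio was formed from genes already described as differing, and no test was run on it.

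**Figure D3:**
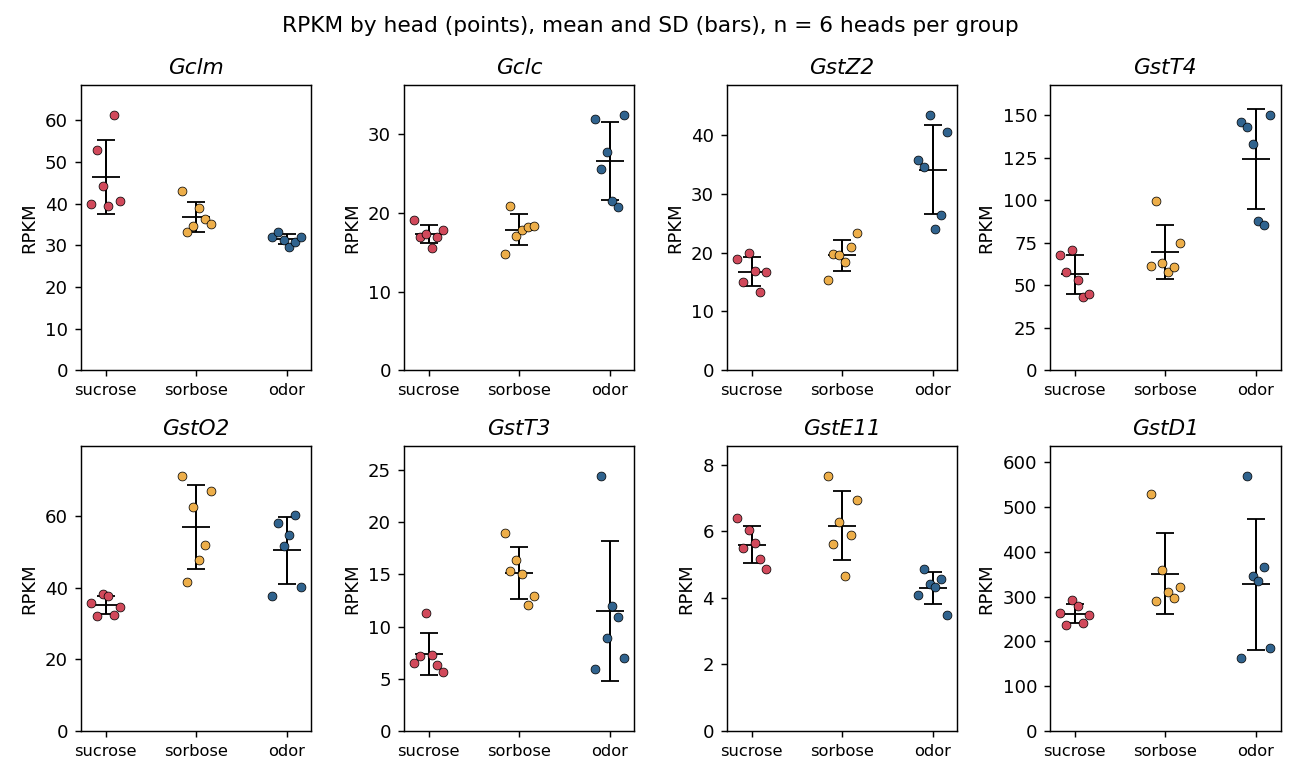
RPKM of 8 genes in single heads (points; y axes start at 0), with mean and SD, for sucrose, sorbose and odor heads (n = 6 each). Sucrose heads lie above odor heads for Gclm and below them for Gclc, GstZ2 and GstT4, GstO2 and GstT3 are lower in sucrose than in sorbose heads, and GstD1 spreads from 163 to 569 RPKM in odor heads.

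GstT4 and GstZ2 showed the largest falls of all tested members in both trained groups. GstT4, a Theta transferase (FBgn0030484; dm6 chromosome X, 13404749 to 13409323, plus strand), measured 43.3, 55.5 and 70.8 RPKM (lowest, median and highest) in sucrose heads, 57.6, 62.4 and 99.5 RPKM in sorbose heads and 85.4, 138 and 150 RPKM in odor heads. Sucrose heads lay below all odor heads, and among sorbose heads only replicate 2 reached the odor range. The log2 difference was -1.12 ± 0.18 in sucrose heads, or 0.460 of the odor level (SE, limma adjusted p = 0.000498), and -0.82 ± 0.18 in sorbose heads (limma adjusted p = 0.00505). The 2 lowest odor heads were replicates 4 and 5, which also lay nearest the trained heads over all genes.

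GstZ2, a Zeta transferase (FBgn0037697; dm6 chromosome 3R, 9456815 to 9460652, minus strand), measured 13.4, 16.8 and 19.9 RPKM (lowest, median and highest) in sucrose heads, 15.3, 19.7 and 23.4 RPKM in sorbose heads and 24.1, 35.2 and 43.4 RPKM in odor heads. No trained head overlapped an odor head. GstZ2 fell by 0.98 ± 0.14 on the log2 scale in sucrose heads, to 0.506 of the odor level (SE, limma adjusted p = 0.000277), and by 0.77 ± 0.14 in sorbose heads (limma adjusted p = 0.00256). It is the only member whose sorbose and odor heads did not overlap, where 7.17% of all tested genes did not. Between sucrose and odor heads 4 members did not overlap (Gclm, Gclc, GstT4 and GstZ2), beside 9.45% of all tested genes. GstZ1, the neighbouring Zeta gene (3R, 9455517 to 9456546, minus strand), was not called, with -0.25 ± 0.13 in sucrose heads (limma adjusted p = 0.166) and -0.05 ± 0.13 in sorbose heads (limma adjusted p = 0.835).

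The Omega genes lie side by side on chromosome 3L. In each comparison with odor heads 1 of the 3 (33.3%) was called, beside 27.5% of all genes for sucrose and 24.4% for sorbose. These were GstO2 as lower in sucrose heads and GstO1 as higher in sorbose heads. GstO2 (FBgn0035906; 8521429 to 8523501, minus strand) measured 32.1, 35.2 and 38.2 RPKM (lowest, median and highest) in sucrose heads, 41.5, 57.1 and 71.0 RPKM in sorbose heads and 37.6, 53.1 and 60.2 RPKM in odor heads. Its sucrose heads lay below all sorbose heads and overlapped the odor heads only at odor replicate 1, the lowest of them. The log2 difference from odor heads was -0.49 ± 0.14 in sucrose heads (SE, limma adjusted p = 0.0128) and 0.17 ± 0.14 in sorbose heads (limma adjusted p = 0.384). An exon of GstO2 overlaps se, an Omega-related gene of eye pigment synthesis on the other strand, by 61 bases (3.50% of its exons), and reads there cannot be assigned to a gene with this kit.

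GstO1 (FBgn0035907; 3L, 8523742 to 8524866, minus strand) measured 6.74, 7.29 and 8.14 RPKM in sucrose heads, 6.23, 8.45 and 11.4 RPKM in sorbose heads and 5.60, 6.30 and 6.97 RPKM in odor heads. The groups overlapped, and 5 of 6 sorbose heads lay above the odor mean. The difference was 0.22 ± 0.10 in sucrose heads (SE, limma adjusted p = 0.131) and 0.40 ± 0.10 in sorbose heads (limma adjusted p = 0.0113). Without odor replicates 1 and 6 the sorbose value was 0.33 ± 0.12 (limma adjusted p = 0.0853). GstO3 (3L, 8518885 to 8520295, plus strand) was not called, with 0.29 ± 0.11 in sucrose heads (limma adjusted p = 0.0620) and 0.16 ± 0.11 in sorbose heads (limma adjusted p = 0.308).

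Of the 14 Epsilon genes, 2 (14.3%) were higher in sucrose heads than in odor heads, beside 13.1% of all genes, and 4 (28.6%) were higher in sorbose heads, beside 12.2% of all genes. None was called lower in the main model. Without odor replicates 1 and 6, GstE11 was the only Epsilon gene called higher in sorbose heads. In sucrose heads no Epsilon gene was then higher, and GstE6, GstE7 and GstE8 were lower. GstE11 (FBgn0034354; dm6 chromosome 2R, 18503608 to 18505025, plus strand) measured 4.85, 5.57 and 6.39 RPKM (lowest, median and highest) in sucrose heads, 4.65, 6.08 and 7.65 RPKM in sorbose heads and 3.49, 4.37 and 4.86 RPKM in odor heads. Only the edges of the trained and odor groups overlapped. The difference was 0.35 ± 0.10 in sucrose heads (SE, limma adjusted p = 0.0148) and 0.47 ± 0.10 in sorbose heads (limma adjusted p = 0.00429). Without odor replicates 1 and 6 it was 0.27 ± 0.10 in sucrose heads (limma adjusted p = 0.0955), while the sorbose call remained.

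GstE12, the second most abundant member (FBgn0027590; 2R, 24766718 to 24768172, minus strand), measured 144, 171 and 209 RPKM in sucrose heads, 155, 167 and 203 RPKM in sorbose heads and 103, 143 and 165 RPKM in odor heads. The 2 odor heads near 103 RPKM were replicates 1 and 6, replicate 3, at 129 RPKM, also lay below all trained heads, and replicates 2, 4 and 5 overlapped the trained heads. The difference was 0.36 ± 0.13 in sucrose heads (SE, limma adjusted p = 0.0424) and 0.37 ± 0.13 in sorbose heads (limma adjusted p = 0.0404). These calls sat at the threshold. The sucrose call was lost on leaving out any of sucrose replicates 1 to 5, sorbose replicates 1 and 5 or odor replicates 1, 3 and 6, and the sorbose call on leaving out any of sorbose replicates 1, 3 and 4 or odor replicates 1, 3 and 6. Without both odor replicates 1 and 6 the values were 0.17 ± 0.10 in sucrose heads (limma adjusted p = 0.302) and 0.19 ± 0.10 in sorbose heads (limma adjusted p = 0.283), and over all alternatives the adjusted p ran from 0.00288 to 0.302 and from 0.00435 to 0.283 in these 2 comparisons.

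GstE1 and GstE2 are neighbours in the Epsilon cluster (2R, 18398393 to 18399223 and 18399486 to 18400375, both on the plus strand). GstE1 measured 39.1, 42.1 and 49.7 RPKM in sucrose heads, 45.4, 46.5 and 76.3 RPKM in sorbose heads and 27.9, 37.7 and 48.4 RPKM in odor heads. GstE2 measured 23.2, 25.4 and 28.1 RPKM in sucrose heads, 25.8, 28.4 and 29.9 RPKM in sorbose heads and 15.8, 24.1 and 27.1 RPKM in odor heads. For both genes the sorbose and odor groups overlapped, with all 6 sorbose heads above the odor mean. The sorbose differences were 0.45 ± 0.15 for GstE1 (SE, limma adjusted p = 0.0333) and 0.36 ± 0.11 for GstE2 (limma adjusted p = 0.0227). The GstE1 call was lost without sorbose replicate 1 (limma adjusted p = 0.0728) and without odor replicate 1, 3 or 6, and the GstE2 call without odor replicate 6 (limma adjusted p = 0.0603). Without both odor replicates 1 and 6 neither was called, with 0.26 ± 0.13 for GstE1 (limma adjusted p = 0.240) and 0.17 ± 0.06 for GstE2 (limma adjusted p = 0.0838). Over all alternatives the p ran from 0.0109 to 0.240 for GstE1 and from 0.00201 to 0.0838 for GstE2.

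None of the 7 tested Delta genes was called by limma in any comparison. Unadjusted, 2 had a limma p under 0.05 in sucrose against odor heads, 0 in sorbose against odor heads and 1 between the sugars. Of all 11062 genes tested, 4337, 4130 and 1102 did so, in that order. The log2 differences of the Delta genes ran from -0.60 to 0.13 in sucrose heads and from -0.47 to 0.41 in sorbose heads. GstD1 measured 236, 261 and 293 RPKM in sucrose heads, 291, 317 and 528 RPKM in sorbose heads and 163, 341 and 569 RPKM in odor heads. The odor heads enclosed all heads of the sucrose and sorbose groups, and the differences were -0.20 ± 0.24 in sucrose heads (SE, limma adjusted p = 0.577) and 0.19 ± 0.24 in sorbose heads (limma adjusted p = 0.595). GstD2 had the most negative values, -0.60 ± 0.22 in sucrose heads (limma adjusted p = 0.0546) and -0.47 ± 0.22 in sorbose heads (limma adjusted p = 0.139). GstD9 had -0.31 ± 0.13 in sucrose heads (limma adjusted p = 0.0841) and was called there without sorbose replicate 2 (limma adjusted p = 0.0360, and between this value and 0.165 over all alternatives). GstS1, the single Sigma gene, was not called either, with -0.03 ± 0.22 in sucrose heads and 0.15 ± 0.22 in sorbose heads.

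The spread of odor heads was shared by many of these genes. Odor replicates 1 and 6 were the 2 lowest odor heads for 21 of the 33 tested members (63.6%), against 22.0% of all tested genes, and the 2 highest for 4 members (12.1%), Gclc and GstT4 among them, against 19.4% of all tested genes. GstD1 illustrates the low values, at 163 and 185 RPKM in odor replicates 1 and 6 and at 335 to 569 RPKM in the other 4 odor heads. Without these 2 heads, 12 of the 33 tested members were called in sucrose against odor heads, a larger share than the 14.7% of all genes. Only Gclm of these was higher, and Gclc, GstD1, GstE6, GstE7, GstE8, GstO2, GstT1, GstT2, GstT3, GstT4 and GstZ2 were lower, with GstE7 at -1.02 ± 0.29 (SE, limma adjusted p = 0.0296) and GstD1 at -0.59 ± 0.17 (limma adjusted p = 0.0288). In sorbose against odor heads 4 of the 33 were then called, beside 8.29% of all genes, with GstE11 higher and Gclc, GstT4 and GstZ2 lower.

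Without odor replicates 4 and 5 instead, 10 members were called in sucrose against odor heads, beside 37.2% of all genes, 6 of them higher (Gclm, GstE2, GstE11, GstE12, GstE14 and GstO3) and 4 lower (Gclc, GstO2, GstT4 and GstZ2). In sorbose against odor heads 10 were called as well, beside 34.7% of all genes, with Gclc, GstT4 and GstZ2 again the lower ones. Gclc, GstT4 and GstZ2 were thus called lower in both trained groups with either pair of odor heads left out, and Gclm higher in sucrose heads. What set odor replicates 1 and 6 apart was not tested.

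Several members of other classes had a profile over the heads like that of GstD1, a Delta gene. The 11 Delta genes lie within 20.8 kb on chromosome 3R (12364776 to 12385624), and GstE1 to GstE10 within 13.2 kb on chromosome 2R (18396638 to 18409835). Over the 18 heads, log2(RPKM + 0.5) of GstD1 correlated with that of GstE6 (Pearson r = 0.93), GstE7 (r = 0.91), GstE5 (r = 0.91), GstE8 (r = 0.86) and GstE3 (r = 0.86), all on the other chromosome. GstT1 (r = 0.84), GstT3 (r = 0.83) and GstT2 (r = 0.80) followed the same profile. So did GstE1 and GstE10 (both r = 0.78), GstZ1 (r = 0.76), GstO2 (r = 0.75) and GstS1 (r = 0.74). Of the other tested Delta genes, GstD3 had r = 0.79, whereas GstD9, GstD2, GstD10, GstD8 and GstD11 lay between 0.49 and -0.22. The share of all tested genes with such values was not determined. Gclc (r = -0.32), GstT4 (r = -0.03) and GstZ2 (r = -0.06) did not. These correlations describe 18 heads that share groups and libraries. Transferases of a class are similar in sequence, so that reads may have been split between copies.

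Sucrose and sorbose heads, which differ in whether the sugar feeds the fly, gave no called member (limma), beside 0.00904% of all genes (1 gene). At an unadjusted limma p under 0.05 there were 8 of 33 members, beside 1102 of all 11062 genes tested. The median log2 difference was -0.28 over the members, with 28 of 33 below 0, and -0.0063 over all tested genes. GstT3, a Theta transferase (FBgn0031117; dm6 chromosome X, 20467455 to 20469796, plus strand), measured 5.68, 6.86 and 11.3 RPKM in sucrose heads, 12.1, 15.2 and 19.0 RPKM in sorbose heads and 5.96, 9.88 and 24.4 RPKM in odor heads. All sucrose heads lay below all sorbose heads, whereas the odor heads spanned both. The log2 difference between sucrose and sorbose heads was -1.01 ± 0.25 (SE, limma adjusted p = 0.146), and 2 of 32 alternatives called it, with the adjusted p between 0.0115 and 0.319. In sorbose against odor heads GstT3 was called once odor replicate 2, the head with 24.4 RPKM, was left out (0.76, limma adjusted p = 0.0116).

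GstO2 was the other member whose sucrose and sorbose heads did not overlap, 2 of 33 members in all, where 1.18% of all tested genes did not overlap. Its difference was -0.67 ± 0.14 (SE, limma adjusted p = 0.0753). It was called without sorbose replicate 2 (limma adjusted p = 0.0354) and in 2 further alternatives of 32, with the adjusted p between 0.00799 and 0.239. The 4 Theta genes all had negative values, from -1.01 to -0.30, and so did 6 of 7 Delta and 12 of 14 Epsilon genes. None of these differences passed the threshold.

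GstE4 and GstD8 had a pattern unlike the other members, which did not follow the groups. GstE4 (FBgn0063496; 2R, 18403248 to 18404086, plus strand) lay between 2.98 and 6.50 RPKM in sucrose replicates 1 and 4, sorbose replicates 1, 2 and 6 and odor replicates 1 and 6, and between 0.139 and 0.484 RPKM in the other 11 heads, with 8 to 288 reads per head. GstD8 (FBgn0010044; 3R, 12380008 to 12380815, plus strand) was highest in the same 7 heads, at 1.44 to 2.30 RPKM, against 0.422 to 0.888 RPKM in the rest. Neither gene was called in any comparison. The 2 genes were singled out after their values had been seen.

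The genes of all tested ones whose profile was most like that of GstE4 over the 18 heads were Jhedup, an esterase gene (Pearson r = 0.99), the olfactory co-receptor gene Orco (r = 0.99) and the odorant-binding protein gene Obp28a (r = 0.96), followed by GstD8 (r = 0.92). Orco lay between 2.84 and 6.10 RPKM in the same 7 heads and between 0.552 and 0.859 RPKM in the others. Obp28a lay between 36.0 and 99.6 RPKM and between 4.59 and 11.4 RPKM, in that order. Odor replicates 1 and 6 were the only odor heads among the 7, at 4.11 and 3.72 RPKM of Orco. Leaving both out therefore left no odor head with high Orco, while 2 sucrose and 3 sorbose heads with high Orco stayed. Orco is made in olfactory neurons of the antenna and maxillary palp. GstD8 correlated with Orco at r = 0.93, and the other members, GstE4 apart, between -0.49 and 0.44. Whether these heads differed in the antennal tissue they kept was not tested. With the Orco level as a covariate, 8 members were called in sucrose against odor heads (28.8% of all genes) and 9 in sorbose against odor heads (29.1% of all genes), all members called before among them.

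**Figure D4:**
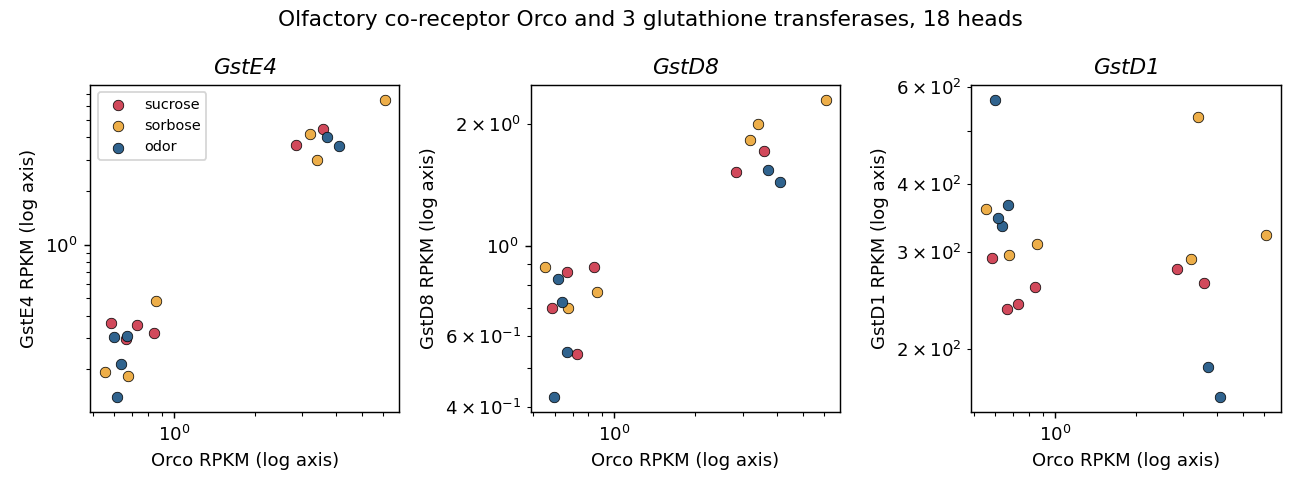
RPKM of GstE4, GstD8 and GstD1 against RPKM of the olfactory co-receptor gene Orco in the 18 single heads (both axes logarithmic), coloured by group. GstE4 and GstD8 are high in the 7 heads with 2.84 to 6.10 RPKM of Orco and low in the other 11, and GstD1 shows no such split.

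Other genes of the glutathione and antioxidant system were counted from a list of 36, of which 35 were matched and 34 tested. In sucrose against odor heads 3 were higher and 4 lower, 20.6% of those tested beside 27.5% of all genes. Against odor, sorbose heads had 6 higher and 3 lower, 26.5% of those tested beside 24.4% of all genes. No listed gene was called between the sugars. The medians over the list were 0.016 and 0.12 on the log2 scale in the 2 comparisons with odor heads.

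Of the 5 genes of glutathione synthesis and supply, Ggt-1, a gamma-glutamyl transpeptidase of glutathione breakdown, was higher in both trained groups. It measured 7.92, 9.51 and 10.5 RPKM (lowest, median and highest) in sucrose heads, 8.77, 10.1 and 12.1 RPKM in sorbose heads and 6.35, 7.05 and 7.84 RPKM in odor heads, with no overlap between trained and odor heads. The differences were 0.40 ± 0.08 in sucrose heads (SE, limma adjusted p = 0.00189) and 0.49 ± 0.08 in sorbose heads (limma adjusted p = 0.00176). Cbs, a cystathionine beta-synthase on the way to cysteine, was higher in sucrose heads (0.43 ± 0.15, limma adjusted p = 0.0407). The glutathione synthetase genes Gss1 and Gss2, paralogs whose reads may be split, were not called in either trained group.

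Of the 4 genes of the cnc pathway, 3 were lower in both trained groups, where 14.4% of all genes were lower in sucrose heads and 12.2% in sorbose heads. cnc measured 20.2, 21.0 and 21.6 RPKM in sucrose heads, 18.3, 21.9 and 23.3 RPKM in sorbose heads and 23.2, 26.6 and 32.5 RPKM in odor heads. Its difference was -0.36 ± 0.07 in sucrose heads (SE, limma adjusted p = 0.00130) and -0.32 ± 0.07 in sorbose heads (limma adjusted p = 0.00433). The partner maf-S had -0.39 ± 0.09 in sucrose and -0.33 ± 0.09 in sorbose heads, and ref(2)P, the fly counterpart of p62, had -0.45 ± 0.09 in sucrose and -0.32 ± 0.09 in sorbose heads. Keap1 measured 3.95 to 4.18 RPKM in sucrose, 3.39 to 4.47 RPKM in sorbose and 3.17 to 4.47 RPKM in odor heads and was not called (0.05 ± 0.07 in both trained groups).

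In Drosophila the thioredoxin system reduces oxidised glutathione, since flies have no glutathione reductase. Trx-2, a thioredoxin, was higher by 0.49 ± 0.12 in sucrose heads (SE, limma adjusted p = 0.00579) and by 0.37 ± 0.12 in sorbose heads (limma adjusted p = 0.0274). Trxr1, its reductase, was called in sorbose heads (0.22 ± 0.07, limma adjusted p = 0.0365), as were Mgstl, a microsomal transferase (1.04 ± 0.37, limma adjusted p = 0.0482), and the peroxiredoxins Prx2 (0.57 ± 0.16, limma adjusted p = 0.0195) and Prx4 (0.63 ± 0.20, limma adjusted p = 0.0282). Of 8 tested glutathione and thioredoxin enzymes in this part of the list, 37.5% were called in sorbose heads. Of the 12 superoxide and peroxide genes 16.7% were, beside 24.4% of all genes. None of the 12 superoxide and peroxide genes was called in sucrose heads, beside 27.5% of all genes, and Prx2 had 0.45 ± 0.16 there (limma adjusted p = 0.0509).

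NADPH supplies the reducing power of this system. Taldo, the transaldolase of the pentose phosphate pathway, measured 124, 209 and 337 RPKM in sucrose heads, 266, 636 and 853 RPKM in sorbose heads and 217, 591 and 858 RPKM in odor heads. Taldo fell by 1.15 ± 0.37 on the log2 scale in sucrose heads (SE, limma adjusted p = 0.0312) and had 0.22 ± 0.37 in sorbose heads (limma adjusted p = 0.715). Zw, glucose-6-phosphate dehydrogenase, was not called, with -0.11 ± 0.51 in sucrose heads and 1.38 ± 0.51 in sorbose heads (limma adjusted p = 0.0585).

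Fat body, a tissue that expresses many transferases, was marked by 5 matched genes, of which 3 were higher and 1 lower in each trained group. Their summed level was 219 to 577 RPKM in sucrose heads, 188 to 444 RPKM in sorbose heads and 187 to 252 RPKM in odor heads. apolpp, the precursor of the lipid carrier lipophorin, was higher by 3.35 ± 0.57 in sucrose heads (SE, limma adjusted p = 0.000763) and by 2.48 ± 0.57 in sorbose heads (limma adjusted p = 0.00692), whereas Lpin, a phosphatidate phosphatase of lipid synthesis, fell by 1.43 ± 0.19 in sucrose heads and by 1.11 ± 0.19 in sorbose heads. Of 3 muscle markers 1 was higher in each trained group. Of 4 hemocyte markers 2 were higher and 1 lower in each trained group, and of 5 glial markers 2 were higher and 1 lower in sucrose heads and 1 lower in sorbose heads. Of all genes tested, 13.1% were called higher and 14.4% lower in sucrose heads, and 12.2% higher and 12.2% lower in sorbose heads. None of the 4 neuron and 4 photoreceptor markers was called in any comparison. The part of fat body, muscle, hemocytes and glia in the differences of Gclm, Gclc and the transferases was not tested.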

How the data were processed

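Poly-A RNA of 18 single heads was analysed in 3 groups of 6, taken from the sample labels with their replicate numbers. Per the labels and the study's methods, the libraries were non-stranded, base calls came from CASAVA 1.8.2, and the authors aligned reads to dm6 with TopHat2 2.0.13, counted them on Ensembl genes and normalized them with edgeR 3.18.1. Another passage of the methods names an older aligner and build. The deposited values are RPKM for 17559 genes, of which 17253 took symbols and positions from an Ensembl annotation of dm6. The other 306 kept their identifier. With library sizes recovered from the RPKM, 98.1% of values came out as whole reads (within 0.05 reads), and all 37 members did so in every head.

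Values were transformed to log2(RPKM + 0.5), which understates changes of low genes. Genes with a mean of at least 0.5 RPKM were tested (11062) in 1 model of the 3 groups with limma 3.58.1 in R 4.3.3 (mean-variance trend), adjusted by Benjamini and Hochberg within each comparison. The procedure was tested on simulated data. P-values measure the spread between single heads. The study describes the appetitive training as done on groups of flies. Neither it nor the labels state whether the heads of a group came from flies trained together, and the p-values do not cover such sharing. The alternatives were pseudocounts of 0.1 and 1, no filter, a minimum mean of 5 RPKM, median-of-ratios scaling, quantile normalization, the 2 groups alone, the replicate number as a block, leaving out each head, sample quality weights, no trend and voom on recovered reads. Leaving out pairs of odor heads and the Orco covariate were added after seeing the data.

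The members and lists were chosen with earlier results of these data known. Statistics were given in full for Gclm, Gclc and members called in any comparison, levels for the 5 members of highest mean, and ranges for untested members. GstT3, GstD1, GstD2, GstD9, GstE7, GstS1, GstE4, GstD8, GstZ1 and GstO3 were added after their values were seen. Glo1, FASN1 and para were not matched and not analysed here. Exons of GstT2 overlap CG12926 on the other strand by 223 bases (25.1% of its exons), GstE9 overlaps imd by 40 bases, GstE12 overlaps CG3894 by 33 bases, and GstE1 and GstE10 overlap by 20 bases.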

Additional observations from a re-analysis of the deposited data

Results flagged for a closer look

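Among 99 cases (33 genes in 3 groups of 6 heads), 13 had a head far from the other 5 of its group, by Dixon's criterion on its gap to the nearest over the range of the group. Chance gives about 4.95 such cases if heads are independent and values within a group are normally distributed, which was not tested. These genes are not independent of each other, so that cases can come together. In each of the 13 cases the head was the highest of its group. Sorbose replicate 1 stood out for GstD1 at 528 RPKM, where the other sorbose heads had 291 to 360 RPKM. It also stood out for GstE1 at 76.3 RPKM against 45.4 to 49.4 RPKM in the others, for GstE3 at 107.0 RPKM against 27.7 to 40.5 RPKM, for GstE7 at 25.3 RPKM against 7.01 to 10.1 RPKM, for GstE8 at 4.95 RPKM against 1.39 to 2.04 RPKM and for GstE10 at 12.1 RPKM against 6.96 to 7.89 RPKM.

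Sucrose replicate 3 stood out for GstD2 at 3.81 RPKM against 1.26 to 1.83 RPKM in the other sucrose heads, for GstE7 at 10.3 RPKM against 5.77 to 7.11 RPKM, for GstE8 at 2.28 RPKM against 0.978 to 1.25 RPKM, for GstT1 at 24.3 RPKM against 17.03 to 18.7 RPKM and for GstT3 at 11.3 RPKM against 5.68 to 7.25 RPKM. The remaining cases were sucrose replicate 4 for GstD10 at 3.07 RPKM against 1.87 to 2.25 RPKM, and sorbose replicate 2 for GstE13 at 14.4 RPKM against 9.49 to 10.6 RPKM. Of these genes, only GstE1 was called in a comparison, and its call was lost without sorbose replicate 1.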

How the results depend on the processing

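Gclc, GstT4 and GstZ2 in both trained groups, and Gclm and GstO2 in sucrose heads, kept their direction and call under all 32 alternatives. In sucrose against odor heads 11 members were called with sample quality weights (3706 of all genes) and 12 without odor heads 1 and 6 (1623 of all genes). In sorbose against odor heads 4 members (917 of all genes) were called without odor heads 1 and 6. Leaving out single heads gave 6 to 9 members and 2224 to 3488 genes for sucrose against odor, and 5 to 10 members and 1771 to 3179 genes for sorbose against odor, where the lowest counts came without odor replicate 6. Between sucrose and sorbose, 1 member was called with quantile normalization (19 genes) and with the 2 groups alone (8 genes), and 4 with sample quality weights (308 genes). All genes called there were 2 with voom, 3 without odor heads 4 and 5 and 2 with the Orco covariate. Single heads left out gave 0 to 1 member and 1 to 49 genes, the highest without sorbose replicate 2.

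Signs also turned, for values that were not called. Without odor heads 1 and 6, 11 members turned below 0 in sorbose against odor heads, from GstE7 at -0.41 and GstE6 at -0.25 through GstD1 at -0.20 and GstT1 at -0.079 to GstO2 at -0.0033, and GstZ1 turned to 0.038 without odor heads 4 and 5. In sucrose against odor heads GstE3 (-0.41) and GstE10 (-0.10) turned without odor heads 1 and 6, and 5 members without odor heads 4 and 5, namely GstE4 (-0.26), GstD8 (-0.0014), GstS1 (0.23), GstE5 (0.13) and GstT2 (0.061). Between the sugars GstE4 was at 0.16 with the Orco covariate. Leaving out single heads gave GstE4 values from -0.21 to 0.50 in sucrose against odor heads, and Gclc from -0.089 to 0.0067 and GstE12 from -0.070 to 0.036 between the sugars. The cause was not tested.

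Replicate numbers share no labelled litter, batch or day, and deviations of same-numbered heads correlated at -0.34 to 0.24, -0.27 to 0.19 and -0.15 to 0.44 in the 3 comparisons. A head was closest to its own number in 0, 0 and 1 of 6 cases. With the replicate block 7 members were called for sucrose against odor (2716 genes), 7 for sorbose against odor (2323 genes, GstE1 no longer called at a limma adjusted p of 0.0708) and 0 between the sugars (1 gene). Depth limits GstD4 to GstD7, with at most 20 reads in a head.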
